A study of Homo sapiens with 24 samples.

Results

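The genes described here encode 10 factors that cut the 3′ end of messenger RNA and direct its polyadenylation, and their introns were followed in HCT116 cells treated with the splicing modulator E7107. The members are CPSF1, CPSF2, CPSF3, CPSF4, CPSF6, CSTF1, CSTF3, FIP1L1, WDR33 and PCF11, which are 10 of 21353 annotated genes with rows in the files. Members were fixed by name, and their values were taken from every row that lies on the strand and inside the GRCh37 span of the gene. That gave 2022 of 1823643 rows. Of these, 705 (of 588841 in the whole series) are boundary rows, which count reads that run unspliced across an exon-intron junction, and 1317 are spliced rows, which count reads that join a pair of splice sites.

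Each row holds a percent spliced in (PSI), the share of the reads at 1 splice site that follow the junction of that row. A boundary PSI is therefore the percentage of reads at a donor (the 5′ splice site) or at an acceptor (the 3′ splice site) that were unspliced there. HCT116 is a human colorectal cancer cell line. The cells carried a lentiviral transgene for wild-type (WT) or Y36C PHF5A, a subunit of the SF3b complex, and were treated for 6 h with the solvent DMSO or with E7107, which binds SF3b. Each genotype with each treatment forms a group of 6 samples, written WT DMSO, Y36C DMSO, WT E7107 and Y36C E7107. The labels name no dose. All cells keep their own PHF5A gene beside the transgene, and each genotype is 1 engineered population, so genotype and cell population cannot be told apart. Nothing in the labels says that the 6 samples of a group came from separate cultures, so the p-values measure the spread between these samples, which may be technical.

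Polyadenylation factors act while RNA polymerase II is still transcribing. The CPSF complex reads the AAUAAA signal through CPSF4 and WDR33, with CPSF1 as its scaffold and FIP1L1 as the link to poly(A) polymerase, and CPSF3, the paired partner of CPSF2, is the nuclease. CPSF6 belongs to cleavage factor I, which binds upstream UGUA motifs, CSTF1 and CSTF3 to the CstF complex, which binds the downstream U- and GU-rich element, and PCF11 to cleavage factor II, which also touches the polymerase. The genes of CSTF3 and PCF11 are known to hold polyadenylation sites inside early introns, which yield shortened transcripts when used.

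Depth is known only through the splice sites that had reads. Of 636130 sites listed, 207244 had reads in all 24 samples. The number per sample ranged from 337517 to 340081 in WT DMSO, from 281164 to 283548 in WT E7107, and for Y36C from 336249 to 338547 with DMSO and from 328458 to 331604 with E7107, so the WT E7107 samples had the fewest. The epithelial genes EPCAM, CDH1, KRT8 and KRT18 had reads at 29.2% or more of their listed sites in every sample, while VIL1 had 1 listed site, with reads in some samples only. PTPRC, COL1A2 and PECAM1, markers of blood, connective tissue and endothelium, had no listed rows. The PHF5A allele itself cannot be read from these values.

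In WT cells E7107 raised the unspliced share in every member gene that could be tested. The gene value is the mean PSI over all boundary rows with reads in all 24 samples. It was tested with limma on natural-log odds, at a Benjamini-Hochberg adjusted p of 0.05 over 10428 genes, and 9 members had enough rows. All 9 rose in WT cells (with the median over the boundaries in place of the mean, 5 rose and 1 fell), against a background of 72.2% of genes that rose and 7.60% that fell. The median change in log odds was 0.74 for the members and 0.91 for all genes. In Y36C cells 7 of the 9 rose, where 47.4% of genes rose and 0.892% fell, and the medians were 0.23 for the members and 0.23 for all genes.

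Under E7107 the gene value was lower in Y36C than in WT cells for 8 of 9 members, CSTF3 not being called, and over all genes 64.8% were lower and 15.1% higher. With the median over the boundaries 5 were lower and CSTF3 was higher, CPSF2, CPSF3 and WDR33 being lost (adjusted p = 0.94, 0.16 and 0.065, limma), and CPSF3 was also lost on the percent scale (adjusted p = 0.20). The test of the difference between the 2 E7107 effects, the interaction of genotype and treatment, gave a smaller rise in Y36C for 7 of 9 members, where 60.5% of all genes were called in that direction and 13.4% in the other. With the median the CPSF2 interaction was 0.0091 (adjusted p = 1.0) and that of CSTF3 was 1.65 (adjusted p = 9.1e-13). The calls for CPSF1 were lost when only annotated introns entered its mean (adjusted p = 0.052 between the genotypes under E7107 and 0.16 for the interaction, limma). CPSF3 (−0.17 ± 0.09 SE, adjusted p = 0.099, limma) and CSTF3 (0.10 ± 0.10, adjusted p = 0.36) were not called in the interaction. Between the genotypes in DMSO, limma called none of the 9, with 2 at an unadjusted p under 0.05, where 0.681% of all genes were called.

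CSTF1 had the largest WT rise among the 9 members. Its mean boundary PSI ran from 2.58% through a median of 3.46% to 5.10% in WT DMSO and from 81.4% through 85.3% to 87.4% in WT E7107. In Y36C it ran from 2.30% to 3.99% in DMSO and from 3.40% to 5.19% in E7107. The WT groups were thus fully separated and the Y36C groups overlapped. The mean difference was 81.3 points in WT (log odds 4.76 ± 0.11 SE, adjusted p = 5.5e-13, limma) and 0.981 points in Y36C (0.23 ± 0.08, adjusted p = 0.031).

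WDR33, FIP1L1, CPSF6 and CPSF4 followed. WDR33 lay at 1.64%, 2.31% and 2.44% (lowest, median and highest) in WT DMSO and at 12.9%, 16.1% and 18.1% in WT E7107, and rose by 1.82 ± 0.08 in log odds (adjusted p = 3.6e-10, limma). In Y36C its median was 2.03% in DMSO and 3.13% in E7107, a rise of 0.27 ± 0.06 (adjusted p = 0.0023). With the median over its boundaries, the WT rise and the interaction of WDR33 were not called (adjusted p = 0.094 and 0.063), and the Y36C change turned to −0.10 (adjusted p = 0.56). FIP1L1 went from a median of 1.47% (1.29% to 2.02%) to 11.4% (7.74% to 13.7%) in WT (adjusted p = 4.5e-09, limma). In Y36C its samples overlapped, from 0.945% to 1.71% in DMSO and from 1.06% to 2.36% in E7107 (0.12 ± 0.09, adjusted p = 0.30). In both genes every WT E7107 sample lay above every WT DMSO sample. CPSF6 had medians of 5.99% in WT DMSO and 15.5% in WT E7107, against 5.25% and 6.87% in Y36C, and it rose in both (adjusted p = 1.0e-07 and 0.0030, limma). CPSF4 had medians of 15.9% and 27.9% in WT and of 14.4% and 17.6% in Y36C, and also rose in both (adjusted p = 3.9e-05 and 2.3e-04, limma).

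In CPSF1 and CSTF3 the E7107 samples of both genotypes lay above their DMSO samples. CPSF1 ran from 8.60% to 9.35% in WT DMSO, from 14.1% to 18.04% in WT E7107, and for Y36C from 7.58% to 9.39% with DMSO and from 12.3% to 14.2% with E7107. Its changes were 0.60 ± 0.05 and 0.41 ± 0.04 in log odds (adjusted p = 1.1e-07 and 1.2e-05, limma). CSTF3 ran from 3.01% to 4.44% in WT DMSO, from 4.87% to 7.21% in WT E7107, and for Y36C from 3.29% to 4.52% with DMSO and from 5.79% to 7.56% with E7107. Its changes were 0.38 ± 0.08 and 0.48 ± 0.06 (adjusted p = 4.4e-04 and 3.5e-05). The WT change of CSTF3 turned round when the median over its boundaries replaced the mean (−0.92, adjusted p = 7.2e-08, limma), and by that measure it was higher in Y36C than in WT under E7107 (1.62, adjusted p = 1.47e-10).

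CPSF3, the nuclease, and its partner CPSF2 had the lowest values. CPSF2 lay between 0.537% and 1.05% in WT DMSO and between 1.29% and 2.44% in WT E7107, and CPSF3 between 0.326% and 0.677% and between 0.642% and 1.31%. Both rose in WT (adjusted p = 1.2e-04 and 8.5e-04, limma). In Y36C, CPSF2 rose by 0.250 points (adjusted p = 0.036) and CPSF3 differed by 0.210 points (adjusted p = 0.091). The rises of CPSF2 and CSTF1 in Y36C were lost with the replicate number as a block, at adjusted p = 0.091 and 0.070. CPSF2 also lost its rise with the median over its boundaries, in WT (adjusted p = 0.36) and in Y36C (adjusted p = 0.32), and on the percent scale in Y36C (adjusted p = 0.14). The CPSF3 rise in WT was lost on the percent scale and with the median (adjusted p = 0.053 and 0.066).

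**Figure D1:**
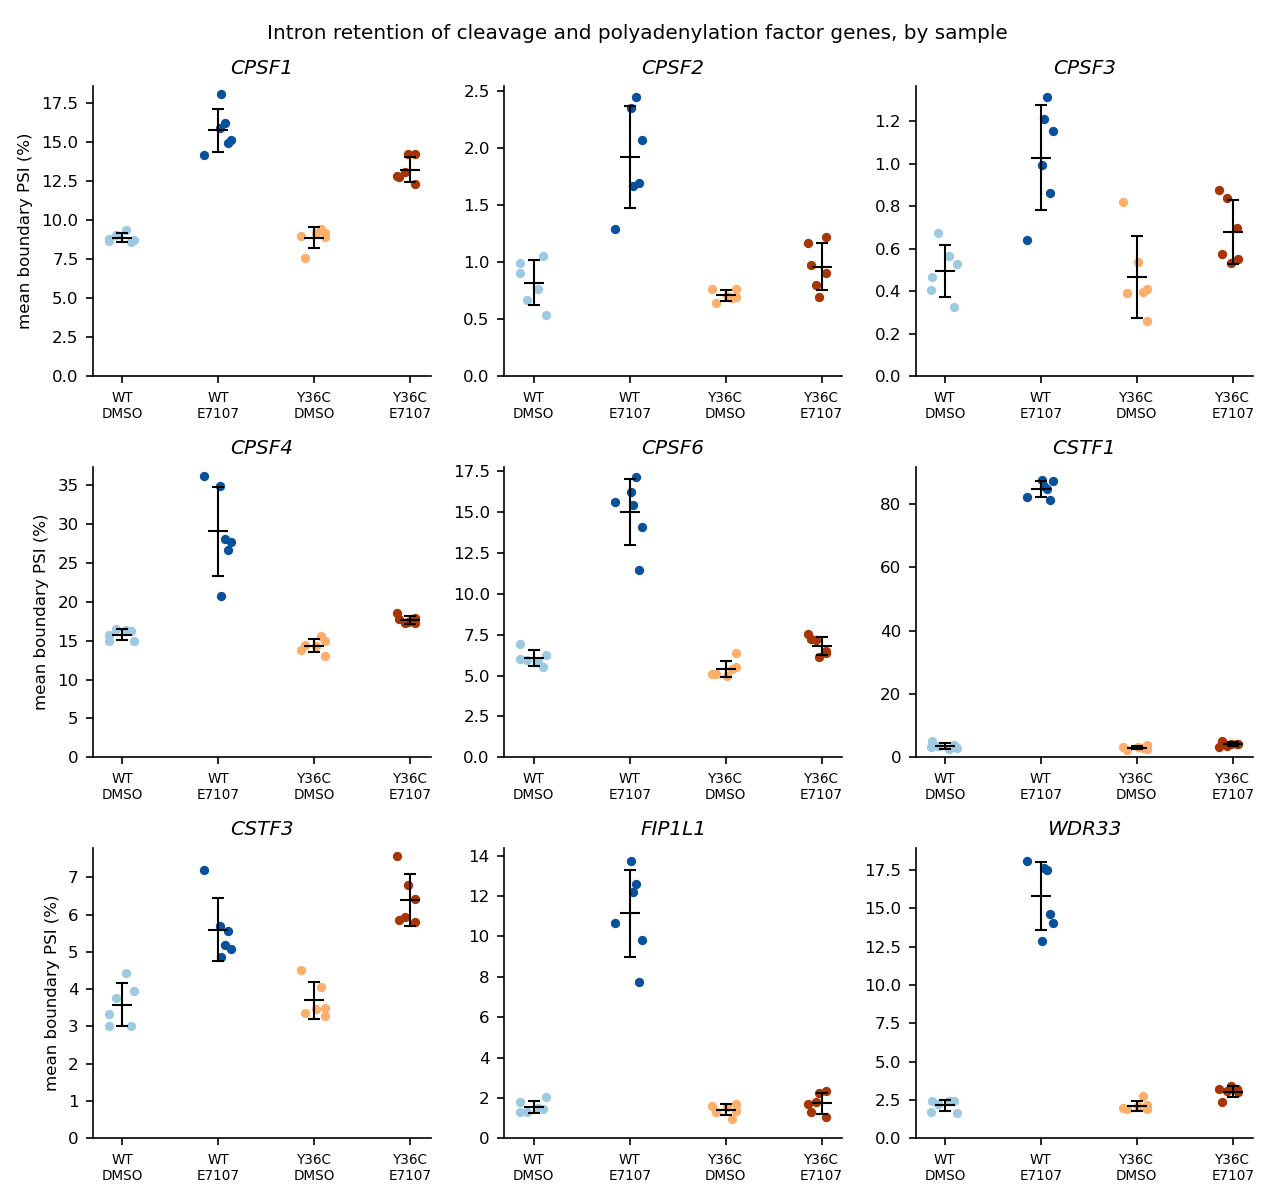
Mean boundary PSI in percent (y axis) of the 9 member genes with enough rows, in each sample of the 4 groups (x axis), with points for the 6 samples of a group, a bar for their mean and whiskers for 1 SD. CSTF1 stands at 81.4% to 87.4% in WT E7107 and at 5.19% or less in the other groups, while the Y36C E7107 samples of CSTF3 reach 7.56%.

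Of the boundary rows, 159 of 705 could be tested in WT cells, 114 rose and 8 fell, or 71.7% and 5.03% of those tested, beside 70.8% and 5.78% of all boundary rows. The shares of these genes were close to the background there. In Y36C cells 64 of 160 rose and 1 fell, beside 26.8% and 1.26% of all boundary rows. Which rows entered depends on their level, so these shares are descriptions, and 34 of the 64 rises lay in CPSF1. CSTF3 gave 10 further rises, CPSF4 gave 7 and FIP1L1 gave 1 fall and no rise among 9 tested rows.

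Between genotypes under E7107, 88 of 174 boundary rows were lower in Y36C and 28 higher, beside 62.9% and 11.7% of all boundary rows. In the interaction 82 of 180 had a lower and 26 a higher response in Y36C, beside 54.9% and 8.94%. In DMSO limma called no boundary row among 139 between the genotypes, with 21 at an unadjusted p under 0.05 and 1 called on the percent scale, beside 0.166% of all rows.

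Spliced rows moved against the boundary rows. In WT cells 144 of 332 fell and 20 rose (all spliced rows: 39.8% and 7.35%), and in Y36C 89 of 391 fell and 31 rose (14.9% and 7.08%). Under E7107 133 of 350 were higher and 45 lower in Y36C than in WT (39.1% and 12%), and the interaction called 113 of 361 higher and 35 lower (32.6% and 9.06%). In DMSO none of 379 was called by limma, with 28 at an unadjusted p under 0.05 and 1 called on the percent scale (0.0970% of all rows).

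CSTF1, a CstF subunit, was mostly unspliced at all 5 of its introns in WT E7107. Intron 3, with 159 bases the shortest (chr20:54972541-54972699, + strand, GRCh37), had the largest rise of the gene, with a donor boundary PSI between 0% and 1.52% in WT DMSO and between 82.3% and 92.5% in WT E7107, with a median of 84.9%. Its acceptor boundary lay between 0% and 0.781% and between 80.8% and 92.9%. The junction that removes the intron fell from a mean of 99.7% to 13.4% of the donor's reads. Percentages at a site sum to 100, so this largely mirrors the donor boundary and is given without a test. Both ends of the intron thus separated the WT groups. In Y36C E7107 the donor boundary lay between 0% and 3.12% and the acceptor boundary between 0% and 2.90%, with no overlap with WT E7107. Both boundary rows passed the filter on low values only through WT E7107, so their values are given without a test. The letters at both ends of this intron are shown as it had the largest rise of all member introns, with the intron's first 6 bases and its closing AG in capitals, read from GRCh37 on the + strand at chr20:54972538-54972546 and chr20:54972673-54972702.
CSTF1 intron 3 donor: gagGTAAAA
CSTF1 intron 3 acceptor: cttgagcatctcttcttgttggtctAGgtc

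The other CSTF1 introns rose along with it in WT cells. Intron 5 went from a donor median of 0.926% to 87.5%, intron 2 from 5.69% to 85.8% and intron 4 from 0% to 70.0%. At the donor of intron 1 the median was 15.8% in WT DMSO and 96.0% in the 5 WT E7107 samples that had reads there, so that row was not tested. In Y36C the intron 5 donor had medians of 0.455% in DMSO and 3.02% in E7107. The DMSO median lies near 0%, so these values are given without a test.

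**Figure D2:**
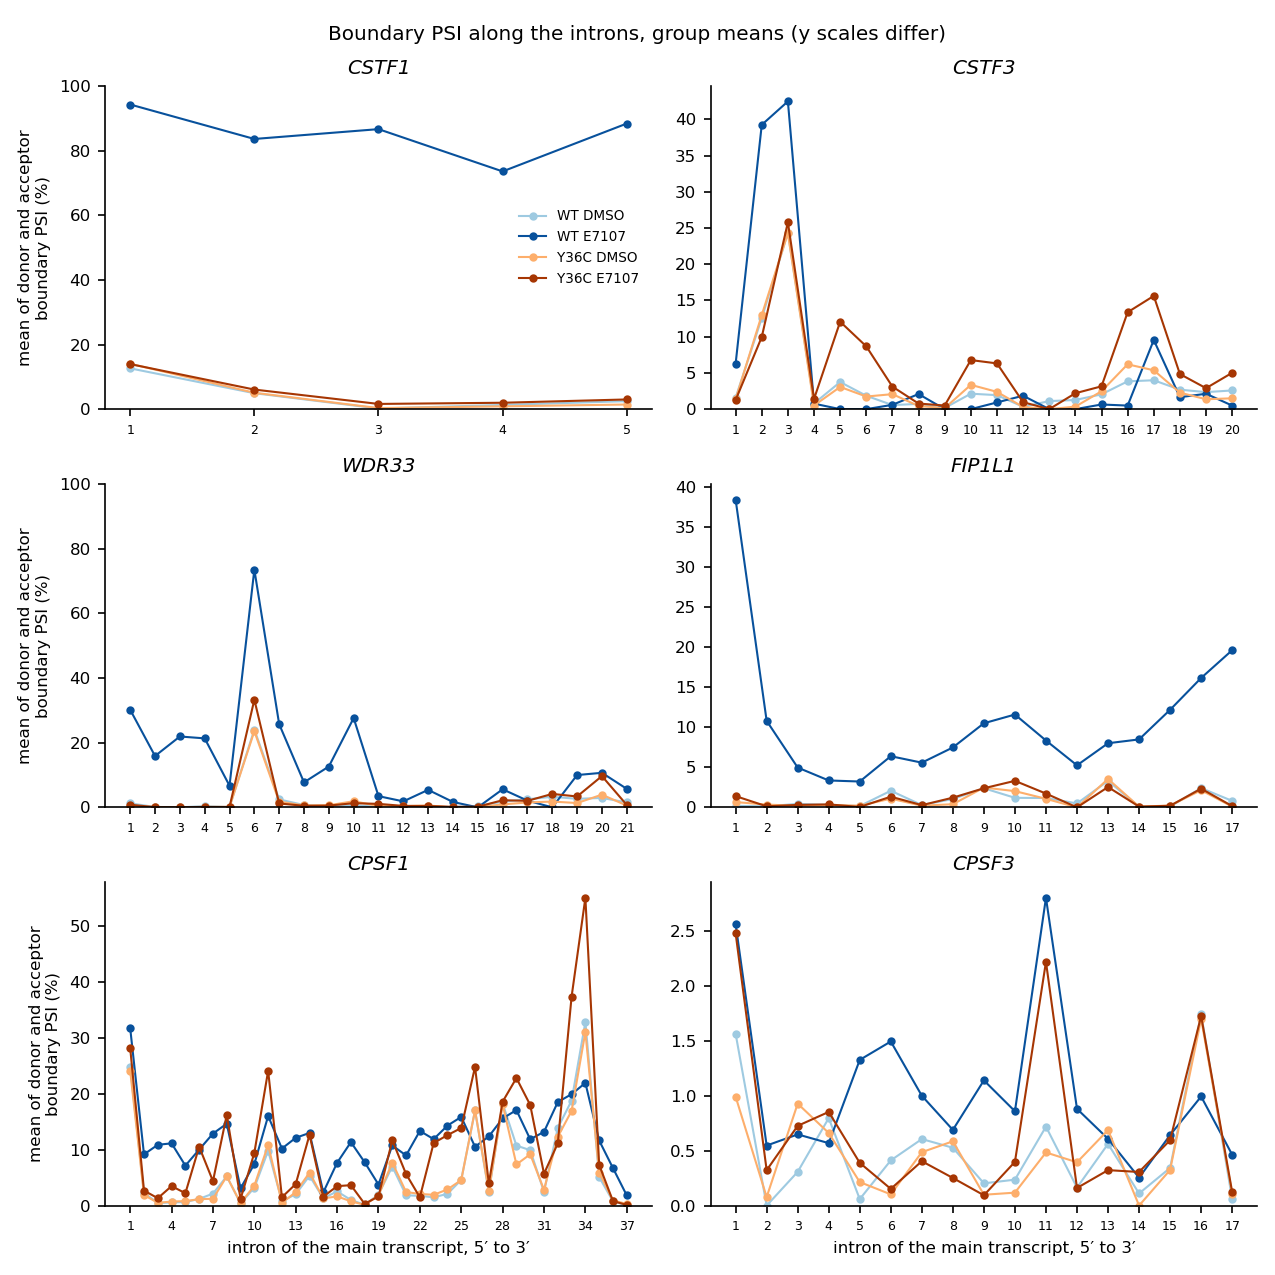
Mean of the donor and acceptor boundary PSI in percent (y axis, with scales that differ between genes) at each intron of the main transcript from 5′ to 3′ (x axis), with a line for each group mean. CSTF1 is high along its whole length in WT E7107, whereas CSTF3 is high over introns 1 to 3 in WT E7107 and over the later introns in Y36C E7107.

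CSTF3 gave opposite results along its length. The 6 boundaries of introns 1 to 3 had a mean between 10.4% and 15.6% (median 12.5%) in WT DMSO and between 24.1% and 32.6% (median 30.2%) in WT E7107. In Y36C they lay between 10.3% and 16.0% in DMSO and between 11.6% and 13.8% in E7107. Only the WT samples were separated by treatment there, and all 4 testable rows rose in WT (70.8% of all boundary rows). The 33 boundaries of introns 4 to 20 had medians of 1.89% (1.41% to 2.42%) in WT DMSO, 1.15% (0.371% to 2.85%) in WT E7107, and for Y36C 2.09% (1.61% to 2.43%) with DMSO and 5.14% (4.34% to 6.74%) with E7107. Here the Y36C E7107 samples lay above all other samples. In this stretch 3 of 5 testable rows fell in WT (5.78% of all boundary rows), 10 of 17 rose in Y36C (26.8%), and 14 of 17 were higher in Y36C than in WT under E7107 (11.7%). Which rows could be tested depends on their level, and WT E7107 stood at 0% at several of the later introns. Rows there could enter only through a group where they are higher, so these counts are descriptions and no support. The split at intron 3 was chosen after these values had been seen. Replicate 6 of WT E7107 stood apart in CSTF3, with a gene value of 7.21% where the other 5 lay between 4.87% and 5.69%.

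Intron 5 shows the downstream pattern. Picked after its values were seen, it had a donor boundary between 1.61% and 11.1% in WT DMSO, at 0% in all 6 WT E7107 samples, and for Y36C between 0% and 11.3% with DMSO and between 10.6% and 17.8% with E7107. The row passed the filter on low values only through the group where it is high in each genotype, so these values are given without a test. Intron 17 had the largest rise of the gene in Y36C, with acceptor medians of 6.16% in DMSO and 19.4% in E7107 (1.27 ± 0.23, adjusted p = 0.0019). In WT its acceptor medians were 5.51% and 9.20%, with a spread from 0% to 41.7% in E7107 (adjusted p = 0.59).

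The third intron of CSTF3 holds the annotated early transcript ends. It is 33248 bases long (chr11:33129965-33163212, − strand, GRCh37), and GENCODE places the ends of 3 transcripts that run on from exon 3 at 59, 202 and 701 bases past its donor, and of another with an exon of its own at 7254 bases. The donor boundary lay between 36.8% and 58.1% (median 46.0%) in WT DMSO and between 80.5% and 85.4% (83.2%) in WT E7107. In Y36C it lay between 39.5% and 52.9% (45.6%) in DMSO and between 43.4% and 61.9% (45.5%) in E7107. Every WT E7107 sample was thus above every other sample. The WT change was 1.65 ± 0.16 in log odds (adjusted p = 1.4e-06, limma), the Y36C change 0.11 ± 0.16 (adjusted p = 0.67) and the interaction −1.54 ± 0.21 (adjusted p = 2.0e-06). Splicing of the intron took a median of 53.6% of the donor's reads in WT DMSO and 16.8% in WT E7107 (−1.66 ± 0.16, adjusted p = 1.6e-06).

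At the far end of the same intron the acceptor boundary was low in every group. Its median was 0% in both WT groups, with 5.00% and 10% as the highest samples, and 2.30% and 3.05% in Y36C DMSO and Y36C E7107. As background, transcripts that end early inside an intron cross its donor and not its acceptor, while a retained intron crosses both, so the donor value less the acceptor value was taken per sample. That difference had a mean of 47.0 ± 8.70 points (SD, n = 6) in WT DMSO and of 81.6 ± 3.598 in WT E7107 (two-sided exact permutation p = 0.0022, the smallest that 6 against 6 samples allow, adjusted over 4 comparisons to 0.0043). In Y36C it was 42.9 ± 3.68 in DMSO and 45.3 ± 6.58 in E7107 (exact permutation p = 0.50). With an acceptor median of 0% in both WT groups, the difference largely repeats the donor value and is no separate support. A donor above its acceptor in WT E7107 is also given below for CPSF6 intron 1, which has no annotated early end. Use of the early ends was not tested. On the log-odds scale with an offset of 0.1 percentage point the WT difference was no longer called (1.57, exact permutation, adjusted p = 0.23).

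Intron 2 of CSTF3, 122 bases long (chr11:33163309-33163430), had the largest mean rise of the gene in WT. Its donor boundary median went from 11.1% (7.63% to 13.01%) to 36.1% (28.3% to 50%), and its acceptor boundary median from 14.6% to 42.9%. In Y36C the donor medians were 10.8% and 7.16% (adjusted p = 0.23, limma), and the interaction was −1.90 ± 0.25 (adjusted p = 1.4e-06). Introns 2 and 3 share a trait at their donors, shown here with the donors of PCF11 intron 1 and WDR33 intron 6, the member introns that with CSTF3 intron 3 had the highest donor boundary PSI in WT DMSO. The last 3 exonic letters are in lower case and the first 6 intronic letters in capitals, from GRCh37 at chr11:33163425-33163433, chr11:33163207-33163215 and chr2:128522396-128522404 on the − strand and chr11:82868671-82868679 on the + strand.
CSTF3 intron 2 donor: cagGTTTAG
CSTF3 intron 3 donor: gagGTTACT
WDR33 intron 6 donor: cagGTTTAT
PCF11 intron 1 donor: aagGTTTTT

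All 4 begin with GTT. Among 185216 introns of main coding transcripts 2.68% begin so, and 14 of 163 member introns do. Ordered by the donor boundary PSI of WT DMSO, the 3 highest of 162 member introns were PCF11 intron 1 (mean 48.1%), CSTF3 intron 3 (47.8%) and WDR33 intron 6 (36.3%), and CSTF3 intron 2 was at rank 11 (10.6%). The other GTT introns of the members lay between 0% and 3.25%, for instance FIP1L1 intron 16 (3.25%) and CSTF3 intron 19 (2.30%). CPSF1 intron 34, at rank 4 (33.2%), does not begin with GTT. This trait was noticed after the values were seen and carries no test. Of the 4 early ends in CSTF3 intron 3, none had AATAAA or ATTAAA within the 40 bases before it on the transcribed strand, a match that 77.2% of 19448 main coding transcript ends have, and nothing about their use follows from that.

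In PCF11 fewer splice sites were taken to have reads in WT E7107 than in the other groups. All 30 boundaries of its main transcript had reads in every sample of WT DMSO, Y36C DMSO and Y36C E7107, but only 9 to 22 (median 17) had them in WT E7107, so no gene value was tested. In these bulk samples fewer cells and less RNA per cell cannot be told apart, and the number of reads behind a percentage is unknown. Part of the span overlaps a long noncoding gene on the same strand, which shares 18 of its rows.

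The first intron of PCF11 (3695 bases, chr11:82868674-82872368) holds an annotated end 1248 bases past the donor, a provisional model, and the 30 bases shown from just before that end carry the signal AATAAA, in capitals (GRCh37, chr11:82869890-82869919, + strand).
PCF11 intron 1 early end: ataaaatttgtgAATAAAacatataaaata
The donor boundary of this intron had a median of 45.8% (41.9% to 59.7%) in WT DMSO, and lay between 99.4% and 99.8% in the 3 WT E7107 samples that had reads at it. In Y36C it had medians of 44.4% in DMSO and 40.7% in E7107 (−0.21 ± 0.17, adjusted p = 0.44, limma). The WT change has no test, as in 3 samples the percentages at this donor sum to 0, which was taken as no reads. The acceptor boundary of this intron had medians of 24.6% in WT DMSO, and for Y36C 19.2% with DMSO and 13.6% with E7107. In the same 3 WT E7107 samples it stood at 0%, 50% and 0%. At intron 15 the acceptor boundary rose in WT from a median of 8.16% (5.26% to 14.9%) to 69.0% (50% to 88.9%), a change of 3.17 ± 0.32 (adjusted p = 2.5e-06, limma). In Y36C its medians were 7.31% and 6.77% (interaction −3.35 ± 0.46, adjusted p = 2.0e-06). Intron 14 had the largest mean change of the gene in Y36C, with acceptor medians of 2.08% and 3.59% (adjusted p = 0.26).

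WDR33 also has early ends, in intron 7 (36284 bases, chr2:128484352-128520635, − strand), at 529 bases past the donor and, with an exon of its own, at 27674 bases. The donor boundary of that intron spread from 0% to 87.5% (median 57.3%) in WT E7107, and from 0% to 7.69% over the other 3 groups. It rose in WT (2.80 ± 0.87, adjusted p = 0.015, limma), while the acceptor boundary was 0% in all 6 WT E7107 samples and at most 5.61% elsewhere. The end at 27674 bases carries the signal in the 30 bases shown (chr2:128492963-128492992, − strand), and the other has no match.
WDR33 intron 7 early end: ttctgaccttcaAATAAAacttattatgta

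Intron 6 of WDR33 (1668 bases, chr2:128520734-128522401), next to it, had the largest rise of the gene in both genotypes. Its donor boundary median went from 35.3% (31.3% to 42.5%) to 86.0% (81.6% to 90.9%) in WT, and from 39.6% (35.7% to 46.7%) to 52.9% (48.1% to 59.8%) in Y36C. The groups did not overlap by treatment in either genotype (WT 2.38 ± 0.17, adjusted p = 9.9e-08, and Y36C 0.56 ± 0.12, adjusted p = 0.0064, limma), and the interaction was −1.83 ± 0.20 (adjusted p = 5.5e-08). Its acceptor boundary rose in WT from a median of 10.7% to 60.4%, and had medians of 7.62% and 13.5% in Y36C (adjusted p = 0.057, and 0.037 with the replicate block).

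**Figure D3:**
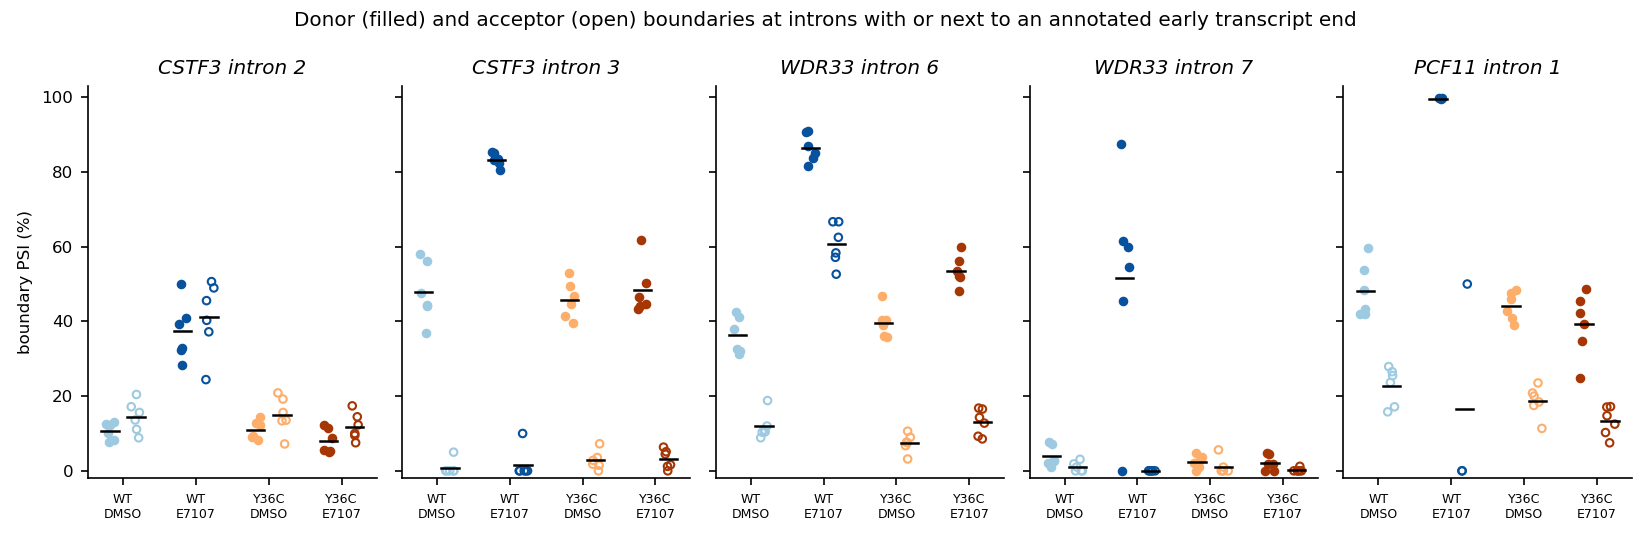
Boundary PSI in percent (y axis) at the donor (filled points) and the acceptor (open points) of introns with or beside an annotated early transcript end, for each sample in the 4 groups (x axis), with short bars for group means. At CSTF3 intron 3 the donor points of WT E7107 lie between 80.5% and 85.4% while acceptor points of all groups stay at 10% or below.

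CPSF1 has the shortest and most GC-rich introns of the set, with a median length of 85 bases and a median GC content of 70.5% over 37 introns, against medians of 32.7% (CPSF6) to 56.7% (CPSF4) in the others. Of its tested boundary rows 55 of 75 rose in WT, where 70.8% of all boundary rows did, and 34 of 66 in Y36C, where 26.8% did. It lists 133 boundary rows in all, 78 of them with reads in all samples. Intron 24, 98 bases long, had its largest WT rise, with a donor median of 2.51% (0.948% to 4.14%) in WT DMSO and 15.1% (9.63% to 19.4%) in WT E7107, and 2.86% and 11.6% in Y36C. It rose in both (adjusted p = 1.4e-05 and 8.7e-05, limma), and the interaction was not called (−0.24 ± 0.24, adjusted p = 0.43).

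Intron 34 of CPSF1, 74 bases long, moved in opposite directions. Its donor boundary had a median of 33.1% (27.8% to 39.6%) in WT DMSO and 22.5% (18.2% to 29.4%) in WT E7107. In Y36C the medians were 31.2% (28.1% to 36.6%) in DMSO and 55.1% (49.6% to 59.1%) in E7107, above every sample of the other groups. It fell by 0.53 on the log-odds scale in WT (± 0.14 SE, adjusted p = 0.0059, limma) and rose by 0.96 ± 0.11 in Y36C (adjusted p = 1.1e-04), and the interaction was 1.48 ± 0.16 (adjusted p = 6.4e-08). The acceptor boundary behaved alike, with medians of 32.2%, 21.9%, 32.2% and 56.3% in the same order of groups. Introns 33 and 26 had a related pattern, and were picked after their values were seen. The donor boundary of intron 33 had medians of 16.8% and 17.3% in WT (adjusted p = 0.35) and of 15.6% and 36.8% in Y36C (adjusted p = 2.0e-04). That of intron 26 fell in WT from 16.7% to 9.63% (adjusted p = 0.0053) and had medians of 17.7% and 21.8% in Y36C (adjusted p = 0.080).

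Over the 143 member introns with reads at both boundaries in all samples, the change in Y36C had a Spearman correlation of 0.35 with GC content, which was −0.20 within the 37 introns of CPSF1 and 0.15 within the 106 of the other genes. The WT change had one of 0.18 with GC content over all 143. These are descriptions across introns, which share libraries and, within a gene, transcripts. The change was larger in Y36C than in WT for 14 of 19 introns of CSTF3, 11 of 37 of CPSF1, 4 of 17 of CPSF3 and 0 of 17 of FIP1L1, as group means without a test.

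**Figure D4:**
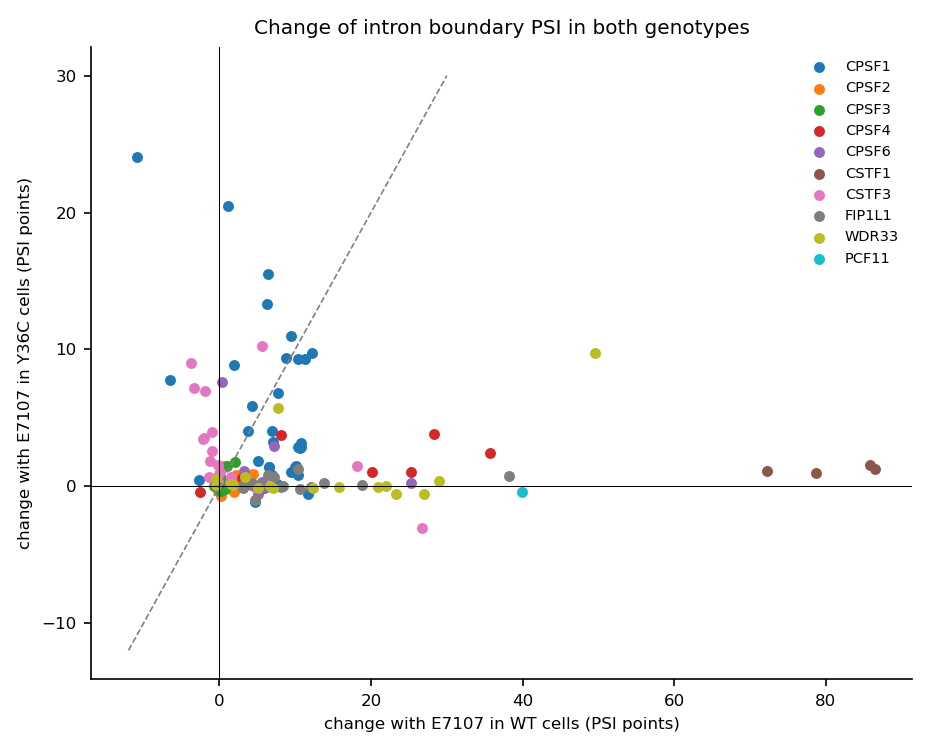
Change of the mean boundary PSI of each member intron with E7107, in percentage points, in WT cells (x axis) and Y36C cells (y axis), with 1 point per intron, coloured by gene. CSTF1 lies far to the right near 0 on the y axis, and CPSF1 reaches 24.0 points in Y36C at an intron that is negative in WT.

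In FIP1L1, the link to the poly(A) polymerase, 9 of 13 tested boundary rows rose in WT cells, where 70.8% of all boundary rows did. In Y36C 0 of 9 rose, where 26.8% of all boundary rows did. Which rows entered depends on their level, so these counts are descriptions. Intron 1 (1149 bases, chr4:54244091-54245239, + strand) had a donor boundary between 0% and 0.847% in WT DMSO and between 46.0% and 71.2% (median 64.8%) in WT E7107, and up to 2.59% in Y36C E7107. In WT this row passed the filter on low values only through WT E7107, so its values are given without a test. The acceptor boundary of intron 1 spread from 0% to 50% in WT E7107 and was not tested. Intron 10, with the largest mean change of the gene in Y36C, had acceptor medians of 1.95% and 19.5% in WT (adjusted p = 8.6e-05) and of 3.17% and 6.30% in Y36C (adjusted p = 0.20). A readthrough gene on the same strand shares 226 of the 232 rows of FIP1L1, and reads of both cannot be told apart.

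CPSF4, a zinc-finger subunit, and CPSF6 rose most in their first introns in WT cells. CPSF4 intron 1 (5603 bases, chr7:99036809-99042411) had a donor median of 3.98% (2.82% to 7.08%) in WT DMSO and 52.8% (41.2% to 65.2%) in WT E7107, and 2.71% and 6.00% in Y36C. It rose in WT (2.99 ± 0.21, adjusted p = 7.5e-08, limma) and less in Y36C (0.83 ± 0.26, adjusted p = 0.035, interaction adjusted p = 8.0e-06), and the Y36C call was lost with an offset of 0.1 percentage point or with the replicate block (adjusted p = 0.13 and 0.072). Intron 3 of CPSF4 rose in Y36C at its acceptor, from a median of 5.08% to 10.9% (adjusted p = 0.034), and that call was lost in the same 2 settings (adjusted p = 0.058 and 0.13). CPSF6 intron 1 (11422 bases, chr12:69633487-69644908) had a donor boundary of at most 2.15% in WT DMSO, from 42.0% to 48.6% in WT E7107 and at most 5.93% in Y36C E7107 (WT 3.82 ± 0.18, adjusted p = 3.5e-09). Its acceptor boundary rose less, from a median of 2.98% to 7.05% (adjusted p = 0.0073). CPSF6 intron 9 was not called in WT, with donor medians of 11.4% and 11.2% (adjusted p = 0.55), and rose in Y36C from 7.19% to 13.9% (adjusted p = 0.023, interaction 0.93 ± 0.32, adjusted p = 0.021).

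In CPSF3, the nuclease, and its partner CPSF2 few boundary rows could be tested, 2 of each in WT and 4 of each in Y36C. CPSF3 intron 11 (4562 bases, chr2:9588480-9593041) had the largest rise in both genotypes. Its acceptor boundary median was 0% in WT DMSO, 4.05% in WT E7107, and for Y36C 0.360% with DMSO and 2.36% with E7107. As the DMSO medians lie at or near 0%, these values are given without a test. CPSF2 intron 1 (3993 bases, chr14:92588473-92592465) had donor medians of 3.85% and 12.2% in WT (adjusted p = 0.098, limma, and 0.048 with the replicate block) and of 4.83% and 4.34% in Y36C (adjusted p = 0.76). Its acceptor boundary rose in Y36C from a median of 1.52% to 3.89% (adjusted p = 0.041), and that call was lost with an offset of 0.1 percentage point or with the replicate block (adjusted p = 0.097 and 0.12). CPSF2 intron 15, with the largest mean change in Y36C, had a donor median of 0% in Y36C DMSO and of 1.78% in Y36C E7107, where 1 sample stood at 10.1%, and was not tested. The acceptor of CPSF3 intron 11, on the + strand at chr2:9593015-9593044, is printed beside that of CSTF3 intron 3, on the − strand at chr11:33129962-33129991, as acceptors of the set whose boundary PSI stayed low in all groups, for comparison with the CSTF1 acceptor above, with the closing AG in capitals.
CPSF3 intron 11 acceptor: ttttcttcaagtattttttttttacAGgtt
CSTF3 intron 3 acceptor: attctatatttttctgtttctcttcAGatt

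Exon-skipping junctions were called in both genotypes. Rows that skip an annotated exon numbered 260, of which 47 could be tested in WT, where 5 rose and 20 fell (all such rows: 21.0% and 22.6%), and 69 in Y36C, where 25 rose and 12 fell (30.4% and 6.14%). The interaction called 28 of 67 higher and 7 lower in Y36C (31.6% and 13.2%). In DMSO none of 57 was called between the genotypes by limma, with 7 at an unadjusted p under 0.05 (0.152% of all such rows). Among the rows that skip at least 1 exon of the main transcript, 22 of 38 rose and 0 fell in Y36C. In WT 2 of 15 such rows rose and 5 fell. No share over all genes was taken for this class. The exons of the main transcripts with a called rise in skipping in Y36C were exon 30 of CPSF1, 12 of CPSF2, 4 of CPSF3, 5 of CPSF4, 11 of CSTF3, exons 2, 9, 11 and 14 to 15 of FIP1L1, and exons 17 and 20 of WDR33. Rows for CPSF1 exon 30, CPSF3 exon 4 and WDR33 exon 20 passed the filter on low values only through Y36C E7107. The list and the counts that hold such rows are therefore descriptions and no support.

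FIP1L1 exon 11 had the highest skipping level of those exons named here. The junction from exon 10 to exon 12 (intron span chr4:54266007-54292038) took a median of 37.9% (30% to 45.9%) of the donor's reads in WT DMSO, 41.3% (21.7% to 55.3%) in WT E7107, and for Y36C 46.3% (38.7% to 53.5%) with DMSO and 71.5% (64.9% to 75.7%) with E7107. Every Y36C E7107 sample was above every other sample. It rose in Y36C (1.01 ± 0.14, adjusted p = 3.7e-04, limma) and was not called in WT (adjusted p = 0.79), with an interaction of 0.93 ± 0.27 (adjusted p = 0.0068).

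WDR33 exon 20 and CPSF2 exon 12 came next in Y36C. Skipping of WDR33 exon 20 (chr2:128466467-128467266) had medians of 0.481% in WT DMSO, and for Y36C 1.51% (0% to 3.49%) with DMSO and 11.5% (8.79% to 16.2%) with E7107. Its row passed the filter on low values only through Y36C E7107, and only 4 WT E7107 samples had reads, so its values are given without a test. Skipping of CPSF2 exon 12 (chr14:92621668-92624002) had medians of 3.91% and 5.89% in WT (adjusted p = 0.24, limma) and of 4.08% (0.935% to 5.88%) and 10.8% (8.26% to 21.1%) in Y36C (adjusted p = 0.0047), and the interaction was not called (adjusted p = 0.29). The Y36C groups did not overlap for either exon, while for CPSF2 the difference from WT was within the error.

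CSTF3 exon 11, CPSF3 exon 4 and CPSF1 exon 30 had lower values. CSTF3 exon 11 (chr11:33120697-33123722) went from a median of 2.71% to 9.57% in Y36C (adjusted p = 0.012, limma), with an uncalled interaction (adjusted p = 0.096). CPSF3 exon 4 (chr2:9570150-9572639) went from 0.670% to 6.42% in Y36C, and WT E7107 had a median of 1.28%. That row passed the filter on low values only through Y36C E7107, so its values are given without a test. CPSF1 exon 30 had a skipping PSI of 0% in all samples of both DMSO groups and a median of 1.91% in Y36C E7107. It passed the filter on low values only through Y36C E7107, so its values are given without a test.

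A WT counterpart was found in WDR33 exon 2, the only main-transcript exon that the rule named in WT. Its skipping (chr2:128526576-128568585) rose in WT from a median of 0.761% (0.735% to 2.11%) to 6.13% (3.33% to 10.6%, adjusted p = 1.3e-04, limma) and had medians of 2.04% and 1.11% in Y36C (adjusted p = 0.33, interaction adjusted p = 2.7e-04). CPSF4 shifted between acceptors at intron 6, whose junctions span exons of other transcripts only. The junction of the main transcript, chr7:99050064-99051588, took medians, of its donor's reads, of 42.5% in WT DMSO, 26.1% in WT E7107, and for Y36C 30% with DMSO and 49.1% with E7107, so it fell in WT (adjusted p = 0.035) and rose in Y36C (adjusted p = 0.0010). The WT fall was lost with the replicate block (adjusted p = 0.081) and with an offset of 0.1 percentage point (adjusted p = 0.057). The junction chr7:99050064-99051666, from the same donor to an acceptor further on, did the reverse as a share of its acceptor's reads, with medians of 9.72%, 22.0%, 11.5% and 5.73% in the same order (adjusted p = 0.016 in WT and 0.0037 in Y36C). Within FIP1L1 the junction chr4:54306776-54308819 had medians of 32.0%, 43.96%, 38.9% and 16.8% of its acceptor's reads, a rise in WT (adjusted p = 0.014) and a fall in Y36C (adjusted p = 8.1e-04). In CPSF6 none of 6 tested skipping rows was called higher with E7107 in either genotype by limma, and in CSTF1 and PCF11 no skipping row could be tested.

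**Figure D5:**
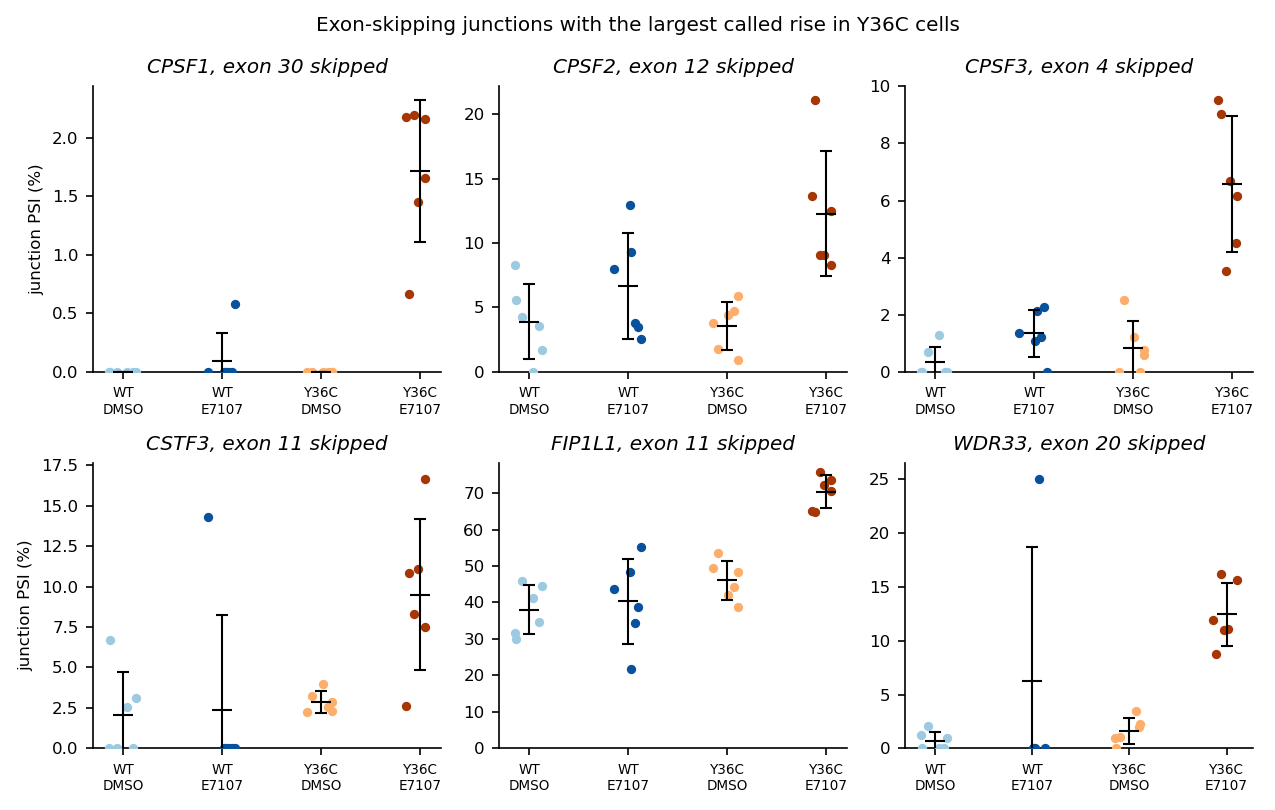
PSI in percent (y axis) of the exon-skipping junction with the largest called rise in Y36C cells, for each gene that skips an exon of its main transcript, with points for the 6 samples of each of the 4 groups (x axis) and a bar for their mean. FIP1L1 exon 11 is skipped in 64.9% to 75.7% of reads in Y36C E7107, above all samples of the other groups.

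Other genes of 3′ end processing were taken as a list of 14, of which 13 had a gene value. In WT cells 12 rose (72.2% of all genes), with a median change of 1.203 in log odds beside 0.91 for all genes. In Y36C 4 rose (47.4% of all genes), SYMPK, PAPOLA, PAPOLG and PPP1CB, with a list median of 0.08 beside 0.23 for all genes. SYMPK, the scaffold symplekin, was not called in WT. Its value lay between 3.05% and 4.27% in WT DMSO, between 3.58% and 4.94% in WT E7107 (adjusted p = 0.15, limma), and for Y36C between 3.30% and 4.51% with DMSO and between 6.89% and 8.48% with E7107 (0.62 ± 0.05, adjusted p = 1.9e-06). In the interaction SYMPK was higher (0.51 ± 0.08, adjusted p = 1.0e-05), 11 genes were lower (60.5% of all genes) and PAPOLA was not called (adjusted p = 0.11). Under E7107 11 of the 13 were lower in Y36C than in WT (64.8% of all genes) and SYMPK was higher (15.1%).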

How the data were processed

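RNA-seq of polyadenylated RNA from 24 samples was used. Per the methods, the authors aligned reads with STAR to hg19 (GRCh37), counted reads on splice junctions and exon-intron boundaries, and deposited percentages: the percent spliced in of each junction at its splice site, 1830076 rows per sample. Versions are not given in the sources used here, and no read counts or depths were used. Groups and replicate numbers came from the labels, and all samples were used. The percentages at a site sum to 100 or to 0. A sum of 0 was taken as no reads and treated as missing, and whether it also marks sites with unspliced reads only was not tested. Here 6433 mitochondrial or strandless rows were left out.

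Genes were assigned with GENCODE 44 on GRCh37 (97.28% of 617040 junctions began with GT and ended with AG). Where the site had reads in every sample of a comparison and the PSI exceeded 0 throughout at least 1 group of 6, the row was fitted over the whole table with limma 3.58.1 (R 4.3.3) on natural-log odds with an offset of 1 percentage point, and p-values were adjusted by Benjamini-Hochberg with a threshold of 0.05. A row at 0% in some samples of a group entered only through another group, so its test is not independent of the filter. A change given in log odds is on this scale and understates changes near 0%. Gene values used at least 4 boundary rows. The difference at CSTF3 intron 3 used an exact permutation test. Named introns and junctions were those with the largest rise per gene in each genotype. Intron numbers follow the main transcript. Sequences were read from GRCh37, and splice-site motifs by strand of the gene.

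The members, lists and settings were chosen with earlier results of these data known. On simulated data the fit recovered 87.0% of genes and 22.0% of rows shifted by 1 in log odds for WT E7107 against WT DMSO, over 10428 genes and 352424 rows. Alternatives covered the scale, the offset, the filter, a minimum change, annotated introns, a median and the replicate block.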

Additional observations from a re-analysis of the deposited data

Results flagged for a closer look

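In 30 of 233 groups of 6 samples, 1 sample stood far from the others, beside a nominal share of 5%. Some of these groups had all other samples at 0%, and the groups share samples and sites. The 5% is therefore no guide to an excess over chance. No cause was tested. WT E7107 replicate 6 recurred in CSTF3, with a gene value of 7.21% (others 4.87% to 5.69%), an intron 17 acceptor boundary of 41.7%, an intron 3 acceptor boundary of 10% and spliced share of 90.0%, and exon 11 skipping of 14.3%. WT DMSO replicate 4 had an intron 3 acceptor boundary of 5.00% and spliced share of 95.0% in CSTF3. Other CSTF3 values far from their group were the intron 17 donor of Y36C DMSO replicate 1 (10.7%) and the spliced share of the intron 3 donor of Y36C E7107 replicate 5 (37.1%).

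In CPSF1, the gene value of Y36C DMSO replicate 4 was 7.58% and exon 30 skipping of WT E7107 replicate 4 was 0.578%. In WDR33, the gene value of Y36C DMSO replicate 3 was 2.74% and the intron 6 acceptor of WT DMSO replicate 1 was 18.8%. CPSF2 had far samples at the intron 1 acceptor (1.205%, Y36C E7107 replicate 2), the intron 15 donor (2.88% in WT DMSO, 6.15% in WT E7107 and 10.1% in Y36C E7107) and the intron 15 acceptor (2.38% in WT DMSO and 1.71% in Y36C DMSO). CPSF6 had them at the intron 1 acceptor (20.5% in WT E7107 replicate 3 and 7.80% in Y36C DMSO replicate 2).

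CSTF1 had single samples above 0% at intron 3, with 1.52% and 0.971% at the donor in WT DMSO and Y36C DMSO and 0.781% at the acceptor in WT DMSO. FIP1L1 had them at the intron 10 donor (0.980% in WT DMSO and 1.49% in Y36C E7107) and at the junction chr4:54306776-54308819 (65.6% in WT E7107 and 28.6% in Y36C E7107). PCF11 had 1 at the intron 14 acceptor (11.4%, WT DMSO replicate 6) and CPSF4 1 at the main junction of intron 6 (35.6%, WT DMSO replicate 4).

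The E7107 effect differed between genotypes for 35 values by the limma interaction, given as the log odds of Y36C less WT. The gene values were CPSF1 −0.19, CPSF2 −0.34, CPSF4 −0.50, CPSF6 −0.69, CSTF1 −4.53, FIP1L1 −1.53 and WDR33 −1.56. Donor and acceptor boundaries were lower in response at CPSF4 intron 1 (−2.16 and −1.99) and intron 3 (−1.47 and −1.53), CSTF1 intron 3 (−5.49 and −5.92) and intron 5 (−4.87 and −5.02), CSTF3 intron 2 (−1.90 and −1.63) and WDR33 intron 6 (−1.83 and −1.80). Single boundaries were lower at the donors of CPSF6 intron 1 (−3.70), FIP1L1 intron 1 (−4.47) and CSTF3 intron 3 (−1.54), and at the acceptors of FIP1L1 intron 10 (−1.32) and PCF11 intron 15 (−3.35). With an offset of 0.1 point the acceptor values of CPSF4 intron 1 and FIP1L1 intron 10 lost their call (adjusted p = 0.14 and 0.074, limma). Both rows of CSTF1 intron 3 passed the filter on low values only through WT E7107. In WT the donor row of FIP1L1 intron 1 did so too.

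Responses were higher in Y36C at CPSF1 intron 34 (1.48 and 1.57), the CPSF6 intron 9 donor (0.93) and splicing of the CSTF3 intron 3 donor (1.56). The last value largely mirrors the donor boundary of that intron and is no separate result. Among skipping junctions the responses were higher for CPSF1 exon 30 (0.91), CPSF3 exon 4 (0.96, lost with an offset of 0.1 point), FIP1L1 exon 11 (0.93) and the main junction of CPSF4 intron 6 (1.38). They were lower for the other acceptor of that intron (−1.65), WDR33 exon 2 (−1.66) and the FIP1L1 junction chr4:54306776-54308819 (−1.58). The rows of CPSF1 exon 30 and CPSF3 exon 4 passed the filter on low values only through Y36C E7107.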

How the results depend on the processing

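Fits on other settings kept most calls. For counts of calls and for the CSTF3 difference, 122 values stayed within 1.5 times or on the same side of the threshold, 24 moved and 1 lost its call. A minimum change of 10 points lowered the counts of boundary rows from 114 to 64 (higher) and 8 to 3 (lower) in WT, 64 to 20 and 1 to 0 in Y36C, 28 to 11 and 88 to 44 between genotypes under E7107, and 26 to 10 and 82 to 46 in the interaction. For spliced rows it gave 7 and 72 in WT, 11 and 33 in Y36C, 56 and 21 under E7107, and 55 and 23 in the interaction, as fewer rows can pass by construction. Without the filter on low values 14 boundary rows fell in WT. On the percent scale 1 boundary and 1 spliced row were called in DMSO. At CSTF3 intron 3 the donor less acceptor difference in WT, in log odds with an offset of 0.1 point, was 1.57 (exact permutation, adjusted p = 0.23). With the median over boundaries 5 genes rose and 1 fell in WT, 1 was higher and 5 lower in Y36C under E7107, and 1 was higher in the interaction, that gene being CSTF3.

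The CSTF3 gene value in WT changed sign with the median (−0.92, adjusted p = 7.2e-08, limma). No other value that changed sign was past the threshold. With the median these were CPSF3 (−0.00042) and WDR33 (−0.10) in Y36C, CPSF1 (0.067), CPSF3 (0.074), CPSF6 (0.019) and CSTF3 (−0.0290) in DMSO, and CPSF2 in the interaction (0.00908). In percent they were the CPSF1 mean in DMSO (0.0090), CPSF2 intron 1 acceptor (−0.037), CPSF3 intron 11 donor (−0.18) and acceptor (−0.51) in the interaction, that donor under E7107 (−0.094), and in DMSO CPSF6 intron 1 acceptor (0.021), CSTF3 intron 17 acceptor (0.0092) and CPSF2 exon 12 skipping (−0.31). With an offset of 0.1 point they were CPSF2 intron 1 donor in DMSO (0.00836) and acceptor under E7107 (0.092), CPSF3 intron 11 acceptor under E7107 (0.10) and CPSF6 intron 1 acceptor in Y36C (0.0052). The cause was not tested.

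Samples with the same replicate number did not deviate together. Their correlations over 837099 rows lay between −0.0055 and 0.0059, and 1 to 5 of 12 samples per comparison correlated best with their own number. With the replicate block 52 boundary rows and 5 genes rose in Y36C and 114 boundary rows rose in WT, and no count moved by over 1.5 times. The number of reads behind each percentage is unknown, so small percentages and rows with 0% carry an unknown counting error.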
